A study of Bos taurus with 16 samples.

Results

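Messenger RNA of the corpus luteum was compared between later and earlier days of early pregnancy in cattle. The later side held 8 animals, 4 on day 20 and 4 on day 23 after breeding, and the earlier side held 8 animals, 4 on day 14 and 4 on day 17. Samples were placed by the day in their labels and by no measured value, and all 16 of the 16 samples of the series were used. Each sample was whole luteal tissue of 1 animal found to be pregnant after natural mating followed by insemination. The labels give no breed, age or treatment, and no animals without a pregnancy were included, so that the age of the corpus luteum and the stage of pregnancy cannot be told apart. In whole tissue, fewer cells of a type and less RNA per cell cannot be told apart either. Of the 27233 genes in the deposited table, 13361 reached an RPKM (reads per kilobase of gene and per M reads of the library) of 1 in 4 or more of the 16 libraries, and these were tested. The comparison was meant to find genes with a lasting change after the time at which the mother recognises the pregnancy. Its test uses the means of the pooled days, so a gene changed on 1 later day only could also pass.

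The corpus luteum forms from the ovulated follicle and secretes the progesterone that keeps the uterus fit for pregnancy. In ruminants the trophoblast of the elongating conceptus secretes interferon tau, a type I interferon that blocks the uterine prostaglandin F2 alpha pulses which would otherwise end luteal life. Some of it, or its effects, reach tissues beyond the uterus, where the type I interferon receptor signals through JAK kinases to switch on interferon-stimulated genes. Large luteal cells of ruminants also make oxytocin, and the gland is among the most densely vascularised tissues.

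Libraries held 28.7 to 44.6 M reads, recovered from the steps of the RPKM values, with a mean of 34.4 ± 4.57 M on days 20 and 23 and 34.4 ± 3.97 M on days 14 and 17 (SD, n = 8 each). The tissue label was borne out by the markers of luteal cells. HSD3B1, the last enzyme of progesterone synthesis, averaged 5494 ± 876 RPKM on days 20 and 23 and 4792 ± 505 RPKM on days 14 and 17. CYP11A1, which cleaves the cholesterol side chain, averaged 4104 ± 259 and 4292 ± 778 RPKM in the same order. Of other cell types, markers of endothelium, pericytes, macrophages and T cells were present, while only 1 of 11 B and plasma cell markers passed the filter on low values. Blood was low in most libraries: the summed level of 8 red blood cell genes ran from 0.588 to 1.88 RPKM on days 20 and 23 and from 1.54 to 23.9 RPKM on days 14 and 17. Errors below are SD of RPKM over 8 animals, or standard errors of a difference on the scale of log2(RPKM + 1), which understates the change of genes near an RPKM of 1. P-values rest on the spread between these animals. In the test of later against earlier days, differences between the 2 days pooled on a side count in that spread.

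At an adjusted p of 0.05 over all genes tested (limma, Benjamini-Hochberg), 9 genes differed between the later and the earlier days, 0.0674% of those tested. 4 genes rose (0.0299%) and 5 fell (0.0374%). Without adjustment 1589 genes had a p under 0.05, which is 11.9% of those tested, 475 of them higher (3.56%) and 1114 lower (8.34%) on the later days. All 9 had both later day means beyond both earlier day means, an order found upward in 13.0% and downward in 24.7% of the genes tested. In 5 of the 9 the 8 later and the 8 earlier libraries did not overlap at all, which was so for 0.120% of the genes tested (0.0299% higher and 0.0898% lower on the later days). In the authors' deposited table, whose headers do not name the comparison behind its p-values, 9 of these 9 genes had an adjusted p under 0.05, as had 527 of the 15806 genes with a value there. That table holds the same 16 libraries, so this is no independent support.

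Of the genes that rose, EIF2AK2 and MX2 are interferon-stimulated. EIF2AK2 encodes the kinase PKR, which binds double-stranded RNA and halts translation. It ran from 12.4 over a median of 14.3 to 17.3 RPKM on days 20 and 23, and from 6.45 over 8.92 to 11.6 RPKM on days 14 and 17. The lowest later library thus lay above the highest earlier one, and the log2 difference was 0.66 ± 0.10 (limma adjusted p = 0.0268, exact permutation p = 0.000155 for 8 against 8, the smallest that the 12870 splits can give). Every gene without overlap gives that permutation p, which is not adjusted, so it adds nothing to the lack of overlap. MX2, a dynamin-like antiviral GTPase, ran from 3.50 over 5.19 to 16.2 RPKM on the later days and from 0.493 over 0.915 to 3.91 RPKM on the earlier days. It had the largest log2 difference of the 9 genes, 1.66 ± 0.26 (limma adjusted p = 0.0268). Its median on the earlier days lay under an RPKM of 1, and it needed later libraries to pass the filter on low values. 6 of the 8 later libraries exceeded the highest earlier one, which was replicate 3 of day 17. By day, EIF2AK2 averaged 8.0, 9.43, 14.7 and 13.8 RPKM and MX2 0.745, 1.93, 7.91 and 5.28 RPKM on days 14, 17, 20 and 23.

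The other genes that rose, LRRC3 and ANKRD33B, are on none of the lists of genes examined. LRRC3, a protein with leucine-rich repeats, had the smallest p of all genes. It ran from 2.88 over a median of 4.07 to 6.52 RPKM on days 20 and 23 and from 1.17 over 1.53 to 2.50 RPKM on days 14 and 17, with no overlap and a log2 difference of 0.97 ± 0.14 (limma adjusted p = 0.0211). Its day means were 1.64, 1.72, 4.56 and 4.02 RPKM on days 14, 17, 20 and 23, so that each pair of days was level within itself. ANKRD33B, a protein with ankyrin repeats, ran from 1.35 over 2.54 to 4.99 RPKM on the later days and from 0.369 over 0.761 to 1.24 RPKM on the earlier days. Its log2 difference was 1.0 ± 0.16 (limma adjusted p = 0.0268), again without overlap. Its mean on days 14 and 17 lay under an RPKM of 1, so it passed the filter through the later libraries.

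The 5 genes that fell were SERPINC1, PLOD3, RCOR2, IER5L and BCL6B. BCL6B, a transcriptional repressor found in endothelium, had the lowest difference of them on the scale of log2(RPKM + 1), which understates that of low genes such as SERPINC1. BCL6B ran from 6.90 over a median of 10.1 to 12.2 RPKM on days 20 and 23 and from 12.5 over 19.8 to 26.6 RPKM on days 14 and 17, a log2 difference of -0.88 ± 0.16 (limma adjusted p = 0.0483) with no overlap. In RPKM the earlier libraries, which stood at a higher level, were more widely spread than the later ones. SERPINC1 encodes antithrombin, the plasma inhibitor of thrombin, made mainly in the liver. It averaged 1.06 ± 0.315 RPKM on the later days and 2.15 ± 0.342 RPKM on the earlier days, a log2 difference of -0.62 ± 0.10 (limma adjusted p = 0.0319), with no overlap.

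PLOD3, a lysyl hydroxylase and glycosyltransferase that modifies collagens in the endoplasmic reticulum, had the smallest shift. It averaged 43.5 ± 2.63 RPKM on days 20 and 23 and 53.0 ± 2.77 RPKM on days 14 and 17, a log2 difference of -0.28 ± 0.05 (limma adjusted p = 0.0323). 7 of the 8 later libraries lay below the lowest earlier one. RCOR2, a partner of the histone demethylase LSD1, averaged 1.54 ± 0.327 RPKM on the later days against 2.81 ± 0.550 RPKM on the earlier days. IER5L, a relative of an immediate-early gene, averaged 9.92 ± 1.19 RPKM against 13.7 ± 1.59 RPKM. Both had a limma adjusted p of 0.0483, with log2 differences of -0.58 ± 0.10 and -0.43 ± 0.08, and with 7 and 6 of the 8 later libraries below the lowest earlier one.

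**Figure D1:**
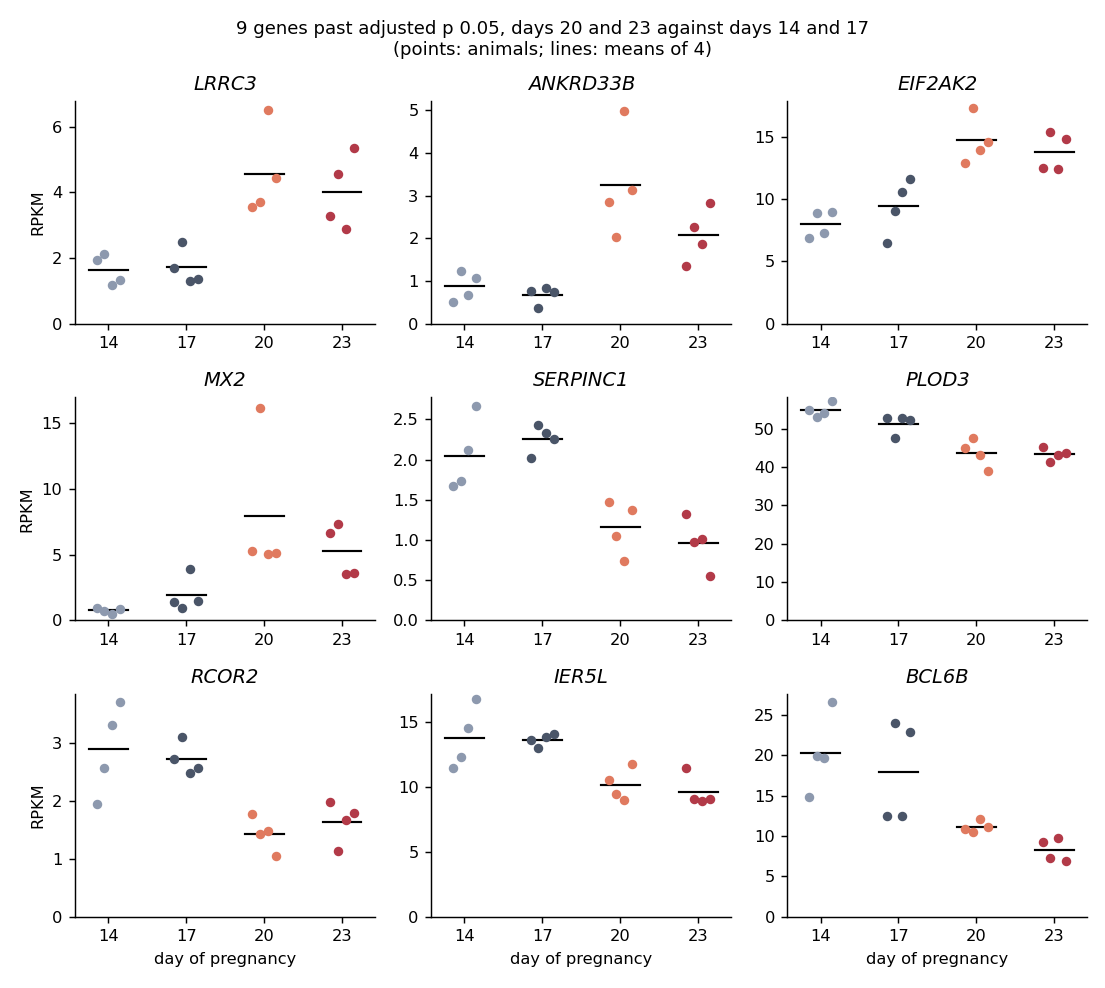
RPKM of the 9 genes past an adjusted p of 0.05 in each animal by day of pregnancy, with lines at the means of 4 animals. The day 20 and day 23 points lie above the day 14 and day 17 points in LRRC3, ANKRD33B and EIF2AK2 and below them in SERPINC1 and BCL6B, without overlap, and 1 day 20 library of MX2 stands at 16.2 RPKM.

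The line at 0.05 cut through a run of similar genes. The largest adjusted p inside it was 0.0483, and just outside it 11 genes shared an adjusted p of 0.053, 10 of them with a symbol. 91 genes had an adjusted p under 0.1, of which 29 were higher and 62 lower on the later days. Among the 11 were APOD (apolipoprotein D, a lipocalin that carries small lipids), with 219 ± 54.0 RPKM on days 20 and 23 and 101 ± 41.7 RPKM on days 14 and 17, and HERC6, an interferon-induced ubiquitin ligase, with 21.7 ± 4.23 and 10.4 ± 5.85 RPKM. HSPE1, the co-chaperonin of mitochondria, stood at 249 ± 22.5 and 312 ± 22 RPKM, and the ETS factor ETV4 at 1.76 ± 0.429 and 3.77 ± 1.18 RPKM. NPHP4, CCM2L, RPS6KA2, FAM171A2 and LOC537848 were lower in each of the 8 later libraries than in any earlier one, and PCDH12 in 7 of them. These genes were picked for their place beside the threshold after their values were seen.

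Several genes in this border zone are known from endothelium. PCDH12, a protocadherin of endothelial junctions, averaged 8.55 ± 1.06 RPKM on days 20 and 23 and 16.2 ± 4.97 RPKM on days 14 and 17. CCM2L, a relative of the cerebral cavernous malformation gene CCM2, averaged 3.97 ± 0.470 and 5.30 ± 0.403 RPKM. RASIP1, which endothelial cells need to form vessel tubes, averaged 28.6 ± 2.46 and 37.2 ± 5.49 RPKM (limma adjusted p = 0.0815) with no overlap of the libraries. ARHGEF15, a guanine nucleotide exchange factor found in endothelium, averaged 14.9 ± 1.43 and 20.3 ± 3.05 RPKM (limma adjusted p = 0.0627). RASIP1 and ARHGEF15 were picked after their values were seen too. None of these 4 passed the test, and 59.3% of all genes tested had a difference below 0.

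The days pooled on each side were also compared with each other, in contrasts that do not use the difference between the sides. Day 23 against day 20 gave 0 genes at an adjusted p of 0.05 in limma (0%), with 935 of the 13361 at an unadjusted p under 0.05 and a smallest adjusted p of 0.215. Limma's voom on the recovered reads gave 0 and 926 genes. Day 17 against day 14 gave 0 genes as well, with 1011 unadjusted (7.57%), a smallest adjusted p of 0.610, and 0 and 1015 genes by voom. Of the 9 genes that differed between the sides, ANKRD33B was the 1 with an unadjusted p under 0.05 within a side. It had 2.08 RPKM on day 23 against 3.25 RPKM on day 20, a log2 difference of -0.44 (limma unadjusted p = 0.046, adjusted p = 0.70). DDIT4, a stress-induced inhibitor of mTOR signalling, was 1 of 2 genes at that smallest adjusted p between the later days, the other being ADGRA3. DDIT4 averaged 175, 146, 299 and 126 RPKM on days 14, 17, 20 and 23, so that it stood out on 1 of the later days only, and its difference of later against earlier days was 0.26 ± 0.25 (limma adjusted p = 0.759).

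**Figure D2:**
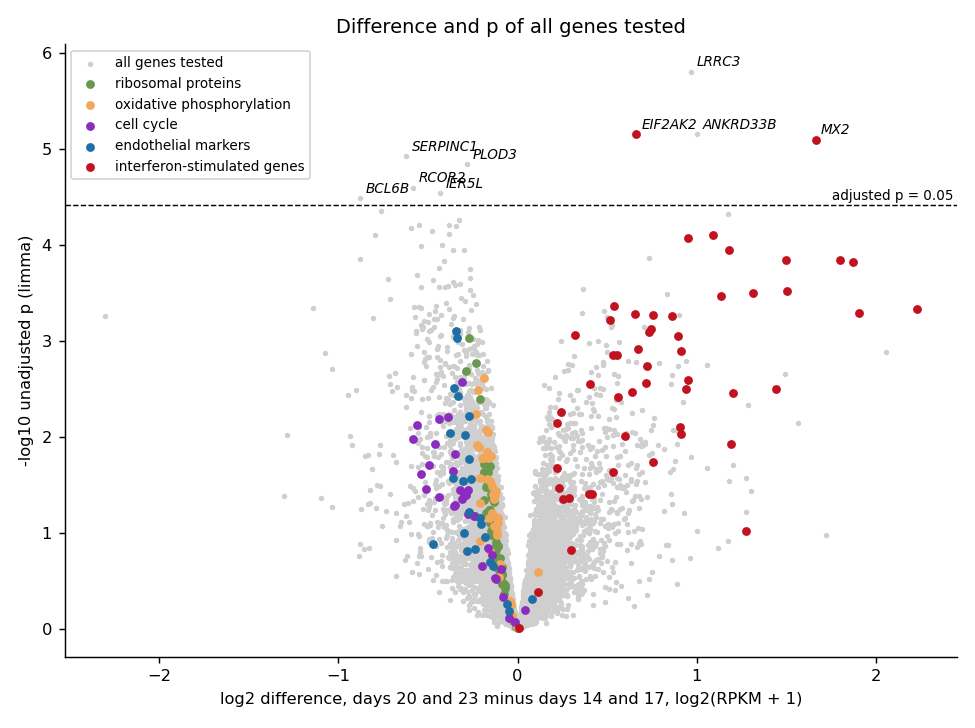
Log2 difference of days 20 and 23 minus days 14 and 17 (x axis, log2(RPKM + 1)) against -log10 of the unadjusted p in limma (y axis) for 13361 genes, with members of 5 gene lists in colour and a dashed line where the adjusted p reaches 0.05. The 53 interferon-stimulated genes all lie right of 0, but only EIF2AK2 and MX2 pass the line, and most endothelial, cell cycle, oxidative phosphorylation and ribosomal protein genes lie left of 0 and below it.

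The interferon-stimulated genes were the list with the largest median. Of its 53 members tested, 2 rose at the adjusted threshold, which 0.0299% of all genes tested did. All 53 had a difference above 0, against 40.7% of all genes tested, and the median was 0.73 against -0.03 over all genes. 49 of the 53 were higher with an unadjusted p under 0.05, against 3.56% of all genes tested. 43 of them had all 8 later libraries above the median of the earlier ones, which 2.47% of all genes tested had. Both later day means exceeded both earlier ones in 49 members. These 49 need not be the 49 counted by p. Without day 14, 50 of 53 were above 0, with a median of 0.53, and 28 were higher unadjusted. 1 of the 53 members had a mean under an RPKM of 1 on the earlier days.

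In the effector genes the earlier libraries were far apart. ISG15, a ubiquitin-like protein that is joined to other proteins, ran from 69.3 over a median of 185 to 247 RPKM on days 20 and 23 and from 9.64 over 27.2 to 359.5 RPKM on days 14 and 17. The highest of all 16 libraries was thus an earlier one, replicate 3 of day 17. The next earlier library, replicate 4 of day 17, had 61.3 RPKM, below all later libraries. The log2 difference was 2.23 ± 0.52 (limma adjusted p = 0.0939), the largest on the list.

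MX1, the sister GTPase of MX2, ran from 89.9 over 179.9 to 250.4 RPKM on the later days and from 25.8 over 57.4 to 235 RPKM on the earlier days (log2 difference 1.51 ± 0.33, limma adjusted p = 0.0843). IFIT1, which binds foreign RNA ends, ran from 11.7 over 17.8 to 42.7 RPKM and from 2.66 over 3.51 to 28.9 RPKM (1.87 ± 0.39, limma adjusted p = 0.0627). In each, the top earlier value again came from replicate 3 of day 17, and the other 7 earlier libraries lay below the 8 later ones. RSAD2 (viperin), an enzyme that makes an antiviral nucleotide, averaged 12.7 ± 3.73 RPKM on the later days and 5.26 ± 4.46 RPKM on the earlier days (limma adjusted p = 0.0863). OAS1Y, one of several near-identical 2′,5′-oligoadenylate synthetase copies among which reads may be split, averaged 171 ± 48.1 and 63.0 ± 68.5 RPKM (limma adjusted p = 0.0627).

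Other members had smaller differences. DDX58 (RIG-I), a sensor of viral RNA, averaged 22.2 ± 3.06 RPKM on days 20 and 23 and 11.8 ± 5.87 RPKM on days 14 and 17 (log2 difference 0.95, limma adjusted p = 0.0546). CXCL10, a chemokine that interferon gamma also induces, had the smallest difference of the list, 0.01 (limma adjusted p = 0.99).

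1 earlier library and 1 later library set the edges of this list. Replicate 3 of day 17 was the highest earlier library in 49 of the 53 members, and replicate 3 of day 23 the lowest later library in 45 of them. Over all genes tested, replicate 3 of day 17 was the highest earlier library in 1838 genes (13.8%). Replicate 3 of day 23 was the lowest later library in 2379 of all genes tested (17.8%). Averaged over the 53 members, log2(RPKM + 1) ran from 3.95 over a median of 4.55 to 4.97 on days 20 and 23 and from 3.14 over 3.54 to 4.84 on days 14 and 17. The highest earlier value of the averages, 4.84, was that of replicate 3 of day 17, and the next, replicate 4 of day 17, was 3.96, near the 3.95 of replicate 3 of day 23. Within the sides, 51 of 53 members were higher on day 17 than on day 14, with a median log2 difference of 0.49, and 9 of 53 were higher on day 23 than on day 20, with a median of -0.18. Neither contrast had a called gene.

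Without replicate 3 of day 17, 100 of the 13361 genes tested passed in limma, 56 higher and 44 lower on the later days. 37 of the 56 were among the 53 tested members of the interferon list. All 9 genes that passed over 16 libraries were among the 100. ISG15 then had a log2 difference of 2.70 (limma adjusted p = 0.000366), IFIT1 2.21 (0.000366), MX1 1.79 (0.000986) and OAS1Y 2.12 (0.000366). 10 of the 10 named genes just outside the threshold passed as well. This library was singled out after its values on this list were seen, and leaving it out lowers the earlier side of the list by construction. The p-values without it therefore add no support. The day of the labels was kept for this library throughout, and nothing in the labels sets it apart.

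**Figure D3:**
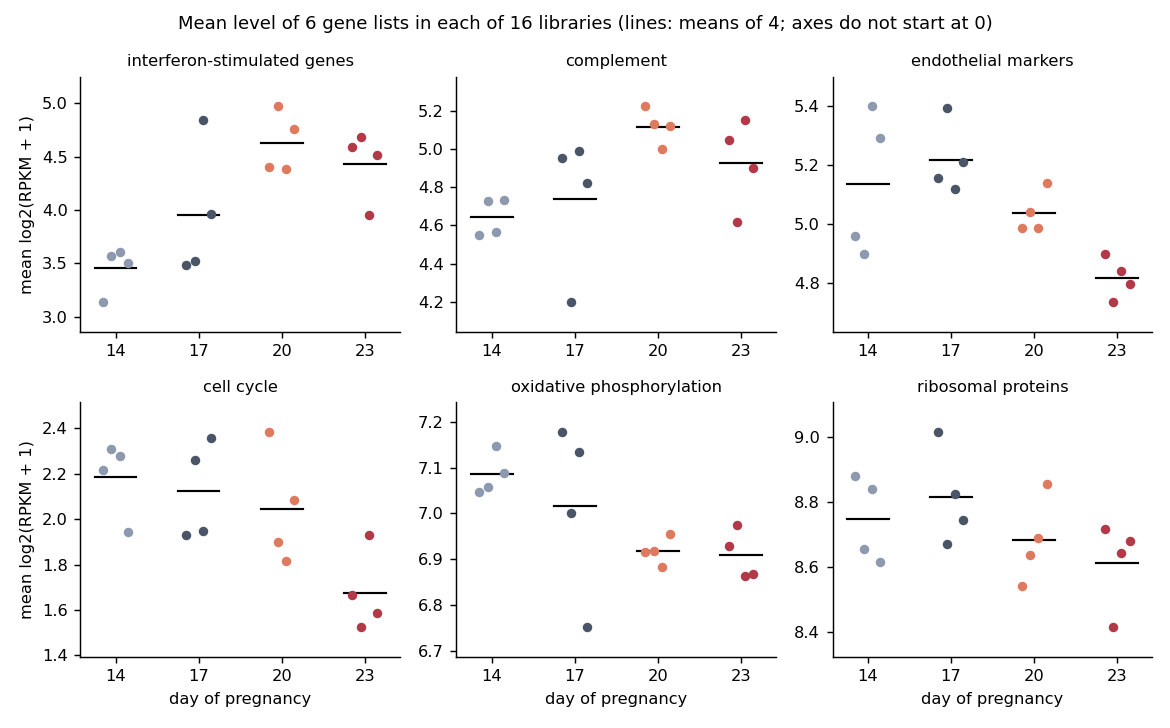
Mean log2(RPKM + 1) over the tested members of 6 gene lists in each of 16 libraries by day, with lines at the means of 4 and axes that do not start at 0. For interferon-stimulated genes 1 day 17 library lies at 4.84 among the later days, and for endothelial markers the day 23 libraries, 4.73 to 4.90, lie at the low end.

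Of the complement genes, all 20 tested had a difference above 0, against 40.7% of all genes tested, with a median of 0.36. 0 passed the adjusted threshold, and 6 (30.0%) were higher with an unadjusted p under 0.05, against 3.56% of all genes tested. Without day 14 the median was 0.21 with 0 higher unadjusted, and without day 20 it was 0.16 with 16 above 0 and 3 higher unadjusted. Without replicate 3 of day 14, or without replicate 1 of day 20, 3 were higher unadjusted. C1S, a protease of the classical pathway, averaged 232 ± 36.7 RPKM on days 20 and 23 and 182 ± 53.4 RPKM on days 14 and 17 (limma adjusted p = 0.373). C4A, its substrate, averaged 201 ± 69.0 and 161 ± 63.5 RPKM (limma adjusted p = 0.639). SERPING1, the C1 inhibitor and among the 4 members with the smallest p, averaged 123 ± 24.7 and 86.0 ± 25.3 RPKM (limma adjusted p = 0.201). The libraries overlapped in all 3 of these genes.

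Markers of immune cells are given beside these lists. Of 18 macrophage markers tested, 14 were above 0, against 40.7% of all genes tested, with a median of 0.16. 0 passed, and 1 (5.56%) was higher unadjusted, against 3.56% of all genes tested. The direction rested on day 20: without it 5 were above 0 with a median of -0.09, and without day 23 17 were above 0 with a median of 0.46 and 10 higher unadjusted. The count unadjusted was 4 without day 17, 0 without day 14, and 2 or 3 without replicate 1 or 3 of day 17 or replicate 4 of day 23. Their summed level ran from 218 to 567 RPKM on days 20 and 23 and from 151 to 492 RPKM on days 14 and 17. C1QB and C1QC, which macrophages make and which are also on the complement list, averaged 92.6 ± 28.1 and 115 ± 32.2 RPKM on the later days and 72.8 ± 31.1 and 90.8 ± 37.8 RPKM on the earlier days. The 1 macrophage marker with a small p, SIGLEC1, is itself interferon-induced, at 3.37 ± 0.936 and 1.75 ± 1.07 RPKM (limma adjusted p = 0.149). On day 23 all 18 macrophage markers were lower than on day 20, with a median log2 difference of -0.60 and no called gene. The part of macrophage content in the complement and interferon lists was not tested.

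All 13 T cell markers and all 9 cytotoxic markers tested were above 0, against 40.7% of all genes tested, with medians of 0.21 and 0.20. 1 of each (7.69% and 11.1%) was higher with an unadjusted p under 0.05, against 3.56% of all genes tested. 0 passed. The cytotoxic list turned over without day 14, with 1 of 9 above 0 and a median of -0.13, and without day 20, with 4 above 0 and a median of -0.03. Without day 17 it had a median of 0.64 and 6 higher unadjusted. All 9 cytotoxic markers and all 13 T cell markers were higher on day 17 than on day 14, with median log2 differences of 0.63 and 0.38, beyond those between the sides. For T cell markers the median was 0.05 without day 14, with 9 of 13 above 0, and 0.38 without day 17, with 5 higher unadjusted. With 1 library left out, 1 to 3 T cell markers were higher unadjusted. Summed levels overlapped widely, at 18.3 to 59.9 RPKM on days 20 and 23 and 17.3 to 39.8 RPKM on days 14 and 17 for 17 T cell genes, and at 15.2 to 45.7 and 9.26 to 39.2 RPKM for 15 cytotoxic genes. CD247, a chain of the T cell receptor complex, averaged 4.36 ± 1.06 and 3.85 ± 0.919 RPKM, and LCK, its kinase, 4.72 ± 1.56 and 4.33 ± 1.07 RPKM. NKG7 and CTSW, of cytotoxic granules, averaged 6.37 ± 2.35 and 8.0 ± 2.86 RPKM on the later days and 6.03 ± 1.90 and 6.62 ± 4.29 RPKM on the earlier days. 3 T cell and 3 cytotoxic genes had an earlier mean under an RPKM of 1, and may have passed the filter through later libraries. The part of lymphocytes in the interferon list was not tested.

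**Figure D4:**
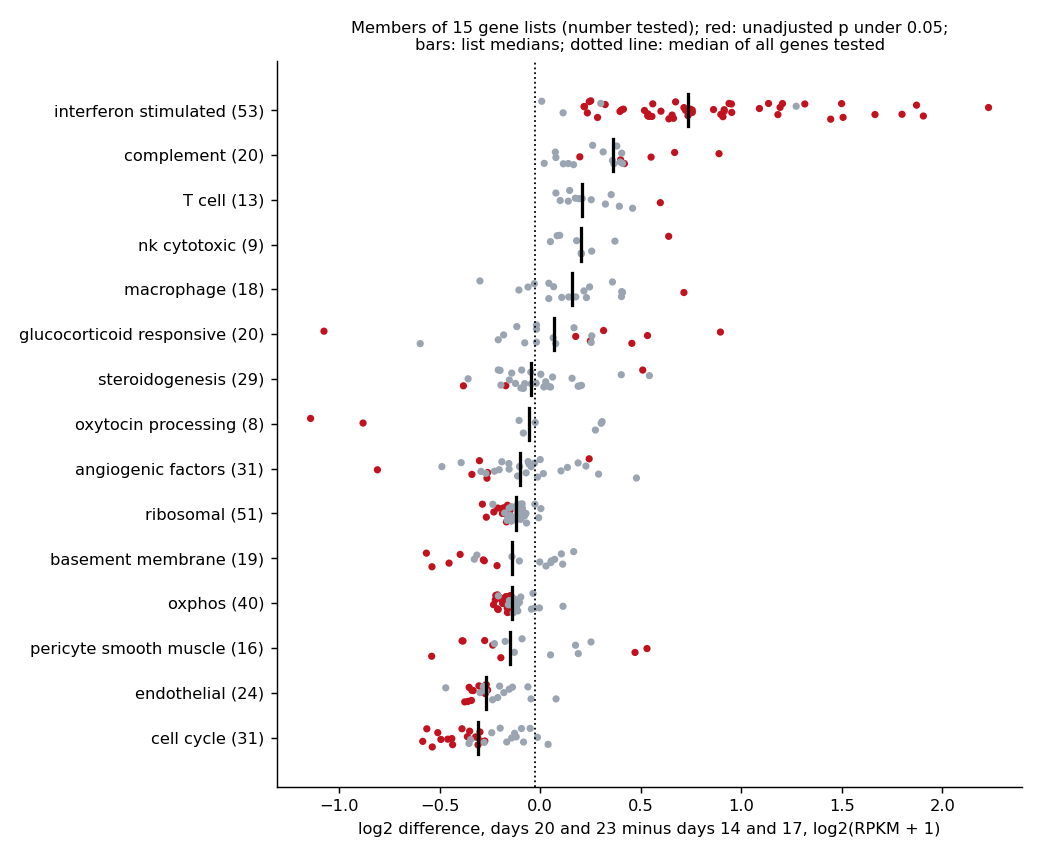
Log2 difference of days 20 and 23 minus days 14 and 17 (x axis, log2(RPKM + 1)) for each tested member of 15 gene lists, with red points at an unadjusted p under 0.05, black bars at list medians and a dotted line at the median of all genes tested. Interferon-stimulated genes reach from 0.01 to 2.23, and the lists at the bottom, endothelial and cell cycle genes, have medians of -0.27 and -0.31.

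Endothelial markers leaned downward. Of 24 tested, 23 had a difference below 0, against 59.3% of all genes tested, with a median of -0.27. 0 passed the adjusted threshold and 11 (45.8%) were lower with an unadjusted p under 0.05, against 8.34% of all genes tested. CDH5, the cadherin of endothelial junctions, averaged 50.2 ± 5.22 RPKM on days 20 and 23 and 64.1 ± 8.70 RPKM on days 14 and 17 (log2 difference -0.34 ± 0.08, limma adjusted p = 0.10), with 6 of 8 later libraries below the lowest earlier one. Of the most abundant markers, EGFL7, a matrix protein of sprouting vessels, averaged 93.5 ± 19.0 and 122 ± 32.1 RPKM (log2 difference -0.36 ± 0.15, limma adjusted p = 0.345), and ENG, a coreceptor for BMP ligands, 249.6 ± 36.6 and 261 ± 36.5 RPKM (limma adjusted p = 0.865). The summed level of the 24 genes ran from 959.7 to 1290.4 RPKM on the later days and from 1043 to 1466 RPKM on the earlier days. On day 23, 23 of the 24 were lower than on day 20, with a median of -0.24, while 18 of 24 were higher on day 17 than on day 14. Without day 23 the median was -0.13 and 2 members were lower with an unadjusted p under 0.05.

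Vessel walls and their matrix gave mixed lists. Of 19 basement membrane genes, 12 were below 0, near the 59.3% of all genes tested, with a median of -0.14. 7 (36.8%) were lower unadjusted, against 8.34% of all genes tested, and 0 passed the threshold. COL4A1 and COL4A2, the collagen chains of vessel basement membranes, averaged 547 ± 94.8 and 394 ± 60.1 RPKM on days 20 and 23 and 792 ± 131 and 539 ± 77.5 RPKM on days 14 and 17 (limma adjusted p = 0.0815 and 0.0939). In each, 7 of the 8 later libraries were below the lowest earlier one. COL18A1, the source of endostatin, averaged 162 ± 34.4 and 239 ± 45.2 RPKM (limma adjusted p = 0.10). COL4A3 and COL4A5, other chains of type IV collagen, had differences of 0.05 and 0.10. PLOD3, which fell, modifies such collagens.

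Of 31 angiogenic ligands and receptors, 23 were below 0, against 59.3% of all genes tested, with a median of -0.10. 5 (16.1%) were lower and 1 (3.23%) higher unadjusted, against 8.34% and 3.56% of all genes tested, and 0 passed. The count lower unadjusted was 2 without day 23, 3 without day 17 or replicate 4 of day 14, and 9 without replicate 1 of day 14. VEGFA, the main angiogenic factor, averaged 125 ± 27.0 and 133 ± 39.0 RPKM (limma adjusted p = 0.916), and its coreceptor NRP1 109 ± 9.19 and 119 ± 17.8 RPKM (limma adjusted p = 0.670). APLNR, the apelin receptor of growing vessels, ran from 12.2 over 14.6 to 16.9 RPKM on days 20 and 23 and from 15 over 23.5 to 50.5 RPKM on days 14 and 17 (limma adjusted p = 0.0939). As in BCL6B and PCDH12, its earlier libraries stood higher and were more widely spread in RPKM than its later ones. Of 16 pericyte and smooth muscle markers, 10 were below 0, near the 59.3% of all genes tested. 6 (37.5%) were lower and 2 (12.5%) higher unadjusted, against 8.34% and 3.56% of all genes tested, and 0 markers passed. RGS5 and ACTA2, the most abundant of them, averaged 144 ± 38.0 and 134 ± 66.6 RPKM on the later days and 159 ± 55.3 and 126 ± 58.4 RPKM on the earlier days. All 16 were lower on day 23 than on day 20, with no called gene, and without day 23 the median was -0.04 with 1 lower unadjusted, against -0.15 with all days.

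Cell cycle genes were lower in 30 of 31, with a median of -0.31, the lowest of the 15 lists described. 0 passed, and 17 (54.8%) were lower with an unadjusted p under 0.05, against 8.34% of all genes tested. That count was 6 without day 14 and 10 without day 17, and it was 9 to 11 without replicate 2 or 3 of day 14, replicate 4 of day 17, replicate 3 of day 20 or replicate 1, 2 or 4 of day 23. The members with the smallest p act in mitosis: PLK1 averaged 3.47 ± 0.649 RPKM on days 20 and 23 and 4.51 ± 0.498 RPKM on days 14 and 17 (limma adjusted p = 0.147), and TPX2 5.09 ± 1.45 and 6.85 ± 0.966 RPKM (limma adjusted p = 0.201). PCNA and MCM7, the most abundant members, act in DNA replication and averaged 16.3 ± 1.76 and 16.8 ± 1.33 RPKM on the later days and 15.9 ± 2.04 and 18 ± 2.42 RPKM on the earlier days. Replicate 1 of day 20 was the highest later library in 25 of the 31 members, and in 14.5% of all genes tested. Its list mean of 2.39 lay above those of all earlier libraries, the highest of which was 2.36. Day 23 was below day 20 in 29 of 31, and without day 23 the median was -0.11 with 0 members at an unadjusted p under 0.05. 4 of the 31 members had a later mean under an RPKM of 1, and may have passed the filter through earlier libraries.

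Genes of oxidative phosphorylation had small differences. 39 of 40 were below 0, with a median of -0.14, 21 (52.5%) were lower unadjusted, against 8.34% of all genes tested, and 0 passed. The count lower unadjusted was 2 without day 14, 10 without day 20 and 6 without day 23, and it was 13 without replicate 1 and 32 without replicate 4 of day 17. In 26 of the 40 all 8 later libraries lay below the median of the earlier ones, which held for 6.71% of all genes tested. NDUFA8, of respiratory complex I, averaged 79.2 ± 3.88 RPKM on days 20 and 23 and 90.4 ± 7.27 RPKM on days 14 and 17 (limma adjusted p = 0.140). ATP5F1B, the catalytic subunit of ATP synthase, averaged 563 ± 39.0 and 635 ± 39.0 RPKM (limma adjusted p = 0.223), and COX6A1, of cytochrome oxidase, 686 ± 52.1 and 702 ± 77.7 RPKM (limma adjusted p = 0.921). Replicate 4 of day 17 was the lowest earlier library in 35 of the 40, and in 10.4% of all genes tested. Under median-ratio scaling of the libraries, the count lower without adjustment was 8 and the median -0.11.

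Ribosomal protein genes were below 0 in 50 of 51, with a median of -0.12, 16 (31.4%) lower unadjusted, against 8.34% of all genes tested, and 0 past the threshold. That count was 5 without day 17 and 3 without day 23. It was 9 or 10 without replicate 1 or 3 of day 17, replicate 1 of day 20 or replicate 2 of day 23, and 25 without replicate 4 of day 20. RPS7 averaged 560.1 ± 53.5 RPKM on the later days and 673 ± 43.7 RPKM on the earlier days (limma adjusted p = 0.107). The most abundant members stood closer together, RPLP0 at 1626 ± 156 and 1735 ± 218 RPKM and RPLP1 at 1636 ± 117 and 1639 ± 195 RPKM. Replicate 1 of day 17 was the highest earlier library in 46 of 51, and in 13.3% of all genes tested. Replicate 2 of day 23 was the lowest later library in 44 of 51, and in 19.5% of all genes tested. Under median-ratio scaling 7 were lower without adjustment, with a median of -0.09.

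Genes of luteal function moved little or in both directions. Of 29 steroidogenesis genes tested, 13 were above and 16 below 0, with a median of -0.04. 1 (3.45%) was higher and 2 (6.90%) lower unadjusted, against 3.56% and 8.34% of all genes tested, and 0 passed. Without day 14 the median was 0.04 with 21 above 0, and without replicate 2 of day 14 it was 0.01. STAR, which carries cholesterol into mitochondria, ran from 2149 over 3372 to 4376 RPKM on days 20 and 23 and from 1594 over 2317 to 3104 RPKM on days 14 and 17 (log2 difference 0.51 ± 0.16, limma adjusted p = 0.204). 5 of the 8 later libraries were above the highest earlier one. SCARB1, the lipoprotein receptor, averaged 3943 ± 503 and 3925 ± 753 RPKM, NR5A1, the steroidogenic transcription factor, 161 ± 27.6 and 144 ± 21.6 RPKM, and the progesterone receptor PGR 1.21 ± 0.131 and 1.30 ± 0.121 RPKM. PTGFR, the receptor for prostaglandin F2 alpha, averaged 447 ± 118 and 425 ± 123 RPKM (limma adjusted p = 0.917). PTGS2, an enzyme of prostaglandin synthesis, and HPGD, which breaks prostaglandins down, were below the filter on low values, at 0.224 ± 0.081 and 0.303 ± 0.13 RPKM on the later days and 0.290 ± 0.145 and 0.476 ± 0.263 RPKM on the earlier days.

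OXT, which encodes oxytocin, was lower on the later days without passing the test. It ran from 957 over 1314 to 2335 RPKM on days 20 and 23 and from 1320.0 over 3250.4 to 5892 RPKM on days 14 and 17 (log2 difference -1.14 ± 0.26, limma adjusted p = 0.0939). Its day means were 4197, 2565, 1708 and 1304 RPKM on days 14, 17, 20 and 23, so that it stepped down within each side as well. AVP, the neighbouring vasopressin gene, averaged 0.857 ± 0.580 and 2.35 ± 0.704 RPKM (limma adjusted p = 0.0627). Its mean on days 20 and 23 lay under an RPKM of 1, and it needed earlier libraries to pass the filter on low values. Its p-value is thus that of a gene kept for its level on the earlier side. Of the 8 genes of oxytocin and its processing that were tested, OXT and AVP were the 2 lower without adjustment. 0 passed the adjusted threshold. PAM, which amidates the peptide, averaged 172 ± 29.5 and 174 ± 24.4 RPKM, and the convertase PCSK1 48.9 ± 13.0 and 39.3 ± 10.4 RPKM. EREG, an EGF-like ligand of the ovulatory response, averaged 2.86 ± 2.27 and 10.1 ± 8.61 RPKM (limma adjusted p = 0.232), with day means of 16.6, 3.64, 3.96 and 1.76 RPKM on days 14, 17, 20 and 23. All 4 day 14 libraries lay above all libraries of the other days.

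Glucocorticoid-responsive genes split. Of 20 tested, 11 were above 0 with a median of 0.07, 6 (30.0%) were higher and 1 lower unadjusted, against 3.56% and 8.34% of all genes tested, and 0 passed. The count higher unadjusted was 1 without day 20, 2 without day 14 and 3 without day 17. It was 2 or 3 without replicate 3 of day 14, replicate 1 or 2 of day 17, any library of day 20 or replicate 3 of day 23. KLF9, a transcription factor induced by glucocorticoid and progesterone, averaged 17.2 ± 5.20 RPKM on days 20 and 23 and 12.1 ± 3.17 RPKM on days 14 and 17 (limma adjusted p = 0.241). ZBTB16, another such factor, averaged 3.17 ± 1.67 and 1.37 ± 1.36 RPKM (limma adjusted p = 0.224), and TSC22D3 (GILZ), a mediator of glucocorticoid action, 142 ± 18.9 and 121 ± 23.5 RPKM (limma adjusted p = 0.386). None of the 53 lists other than that of interferon-stimulated genes held a gene past the adjusted threshold.

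The count of genes past the threshold rested on single days and libraries. Without day 14, day 20 or day 23, 0 genes passed in limma, with 1384, 1628 and 1023 at an unadjusted p under 0.05. Without day 17, 61 passed, 40 higher and 21 lower on the later days, 26 of them interferon-stimulated, and 5 of the 9 were among them. With 1 library left out at a time, the count ran from 0 to 100. It was 0 without replicate 3 of day 14, replicate 4 of day 20 or replicate 2 of day 23, with 1314, 1682 and 1388 at an unadjusted p under 0.05, and it rose to 26 without replicate 1 of day 14 and to 28 without replicate 4 of day 17. LRRC3 passed in 25 of the 31 other settings in which it was tested, EIF2AK2 in 20 of 32, MX2 in 19 of 31, and RCOR2, IER5L and BCL6B in 12 each. None of the 9 changed direction in any setting run.

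**Figure D5:**
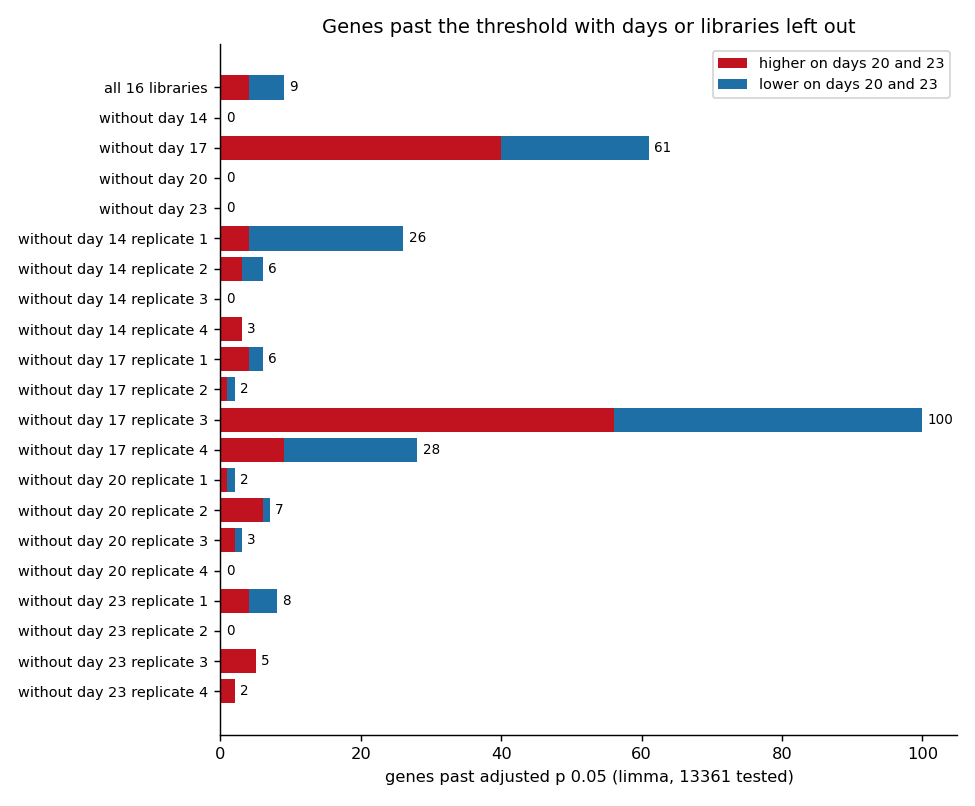
Genes past an adjusted p of 0.05 in limma for days 20 and 23 against days 14 and 17 with all 16 libraries, with 1 day left out or with 1 library left out, split into genes higher and lower on days 20 and 23. The bar of 9 genes over all libraries becomes 0 without day 14, day 20 or day 23 and 100 without replicate 3 of day 17.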

How the data were processed

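The authors deposited 1 table with RPKM for 27233 genes in 16 libraries of whole corpus luteum, with a deposited p-value and adjusted p-value per gene whose comparison the headers do not name. Per the labels' protocols, the library kit (TruSeq Stranded mRNA) keeps strand. Tools listed in the submitters' processing notes are featureCounts 1.5.3, bedtools 2.26.0, HISAT2 2.1.0, FastQC and DESeq2, with the build ARS-UCD1.2. The sources used here do not say whether counting used strand, so reads of overlapping antisense genes may not have been told apart. RPKM divides by 1 total per library, so a few genes that take more reads lower all others. The 50 highest genes took 16.1% to 19.4% of reads. Where the authors counted whole reads, RPKM values are multiples of 1 step per gene and library, and for 27233 of 27233 genes they gave whole reads within a tolerance of 0.001. 9602 rows have no gene symbol. No sequence or coordinate is given.

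Genes that reached an RPKM of 1 in 4 or more of 16 libraries were tested as log2(RPKM + 1), a pseudocount of 1, with limma 3.58.1 in R 4.3.3 (lmFit, eBayes with intensity trend), as 2 groups of 8 with 14 residual degrees of freedom, two-sided, with Benjamini-Hochberg adjustment over 13361 genes. Day 23 against day 20 and day 17 against day 14 came from a fit of 4 day means with 12 residual degrees of freedom. The exact permutation test is two-sided on the difference of mean log2(RPKM + 1). The fits were tested on simulated data.

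The comparison, its members and 54 gene lists (15 described) were chosen with earlier results of these data known, and lists were described by counts and medians without a test. Named genes are those past the threshold, the 5 of a direction with the smallest p where fewer than 5 pass, the 10 without overlap of smallest p, per list the members that pass or the 2 most abundant, and landmark genes (luteal function, interferon response). Other named genes, such as members with the smallest p of a list, were chosen after their values were seen. Some genes the rule names are not reported here. Alternatives were other pseudocounts, filters, scalings, fits, days and libraries left out, a replicate block, and voom on the recovered reads.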

Additional observations from a re-analysis of the deposited data

Results flagged for a closer look

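Among 112 named genes, each side of 8 libraries was checked for 1 library set apart from the other 7 by a gap that is large against the whole range. Of 224 groups 12 were flagged, where chance flags about 1 in 20, or 11.2. On days 20 and 23, MX2 was highest in replicate 2 of day 20 (16.2 RPKM, next 7.37), ISG15 was lowest in replicate 3 of day 23 (69.3, next 143), RPS2 was lowest in replicate 2 of day 23 (388, next 439) and SIGLEC1 was lowest in replicate 4 of day 23 (1.44, next 3.05). On days 14 and 17, replicate 3 of day 17 was highest in MX2 (3.91 RPKM, next 1.47) and IFIT1 (28.9, next 7.53), and replicate 4 of day 17 was lowest in COX7A2 (135, next 163) and ATP5F1B (549, next 614) and highest in KLF9 (19.4, next 12.8). RASIP1 was highest in replicate 4 of day 14 (49.6, next 37.7), UNC5B lowest in replicate 2 of day 14 (9.93, next 14.7) and C4A lowest in replicate 2 of day 17 (42.2, next 126).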

How the results depend on the processing

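The number of genes past the threshold depended on the settings, and the direction of the 9 called genes did not in any of them. Against 9 genes (4 higher and 5 lower on days 20 and 23), array weights gave 53 (25 higher, 28 lower), quantile normalization 24 (9 and 15), voom on recovered reads 22 (11 and 11), no intensity trend 13 (4 and 9), and each of these kept the 9. Without a filter on low values 3 genes were lower, and likewise 3 under median-ratio scaling. A minimum mean RPKM of 5 gave 0 (0 higher, 0 lower) in limma, with 1171 at an unadjusted p under 0.05. That filter drops LRRC3, ANKRD33B, MX2, SERPINC1 and RCOR2. Without day 14, day 20 or day 23 the counts were 0 (0 higher, 0 lower) and without day 17 61 (40 and 21). With 1 library left out they ran from 0 to 100 in all, from 0 to 56 higher and from 0 to 44 lower. The contrasts of day 23 with day 20 and of day 17 with day 14 gave 0 to 1 genes. The causes were not tested.

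Samples of the same replicate number on different days showed no shared deviation over the genes tested (median correlation 0.03, range -0.23 to 0.21 over 24 pairs). Samples of different numbers had a median of -0.007, with a range of -0.26 to 0.21 over 72 pairs. The sample titles do not say what the numbers stand for, and these correlations cannot exclude a pairing or a shared batch. A replicate block gave 3 genes (3 higher, 0 lower), 2 of them among the 9.

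Of 112 named genes 18 changed sign somewhere, each with an adjusted p of 0.69 or more over all libraries. Without day 14 the log2 differences were CTSW -0.10, KLRK1 -0.071, CD247 -0.056, PRF1 -0.15, LCK -0.070, NKG7 -0.13, ACTA2 -0.19, RPLP1 -0.086, VEGFA 0.12 and CYP11A1 0.016. Without day 17 they were ENG 0.067, PTGFR -0.11, RGS5 0.18 and PAM 0.034. Without day 20 they were DDIT4 -0.35, PCNA -0.029, COX6A1 0.0026, NKG7 -0.23, PAM 0.047 and ACTA2 -0.38. Without day 23 they were ENG 0.068, VEGFA 0.056, PTGFR -0.11, SCARB1 -0.079 and RPLP1 -0.00025. Median-ratio scaling gave COX6A1 0.0048 and PAM 0.0084, and quantile normalization COX6A1 0.011. With 1 library left out, ACTA2 ran from -0.11 to 0.21, CYP11A1 from -0.12 to 0.00068, NKG7 from -0.042 to 0.15, PAM from -0.071 to 0.027, PTGFR from -0.00090 to 0.18, RGS5 from -0.27 to 0.011, RPLP1 from -0.026 to 0.038, SCARB1 from -0.034 to 0.072 and VEGFA from -0.16 to 0.027. Counting error weighs most on genes near an RPKM of 1, such as ANKRD33B.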
